A study of Mus musculus with 41 samples.

Results

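The genes read here are 10 markers of cancer-associated fibroblasts in mouse mammary tumors: Pdgfra, Fap, Dcn, Lum, Postn, Thy1, Mfap5, Pi16, Lox and Sparc. They were chosen by symbol, and all 10 had a row among the 47480 symbols measured by RNA-seq. The study asked how loss of the kinase gene Plk2 acts in breast cancer, and its RNA-seq covered 41 untreated BALB/c mammary tumors grown in syngeneic hosts. Of these, 28 were Plk2-/-; p53-/- tumors and 13 were p53-/- tumors. The labels give both groups as null for p53 and the first alone as null for Plk2. Single tumors are named as in their titles, such as PLK2null_732 and p53-null_2396R, and T11 is a p53-/- tumor; the plots give the last part of the name. The double-null tumors came from mammary epithelial cells transplanted into the cleared fat pads of wild-type mice, so a fibroblast of the host carries both genes. The series describes its tumors as transplanted serially, and the labels do not give passage or say which tumors share an origin. All 13 p53-/- titles end in the tag ROSEN and a number, which no Plk2-/-; p53-/- title has. The labels do not say what the tag stands for, and it cannot be told apart from genotype.

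Fibroblasts recruited or activated by a tumor make much of its extracellular matrix. Some carry the receptor for platelet-derived growth factor and the peptidase FAP, some secrete and crosslink collagen, and some keep the features of the universal, vessel-associated fibroblasts that express Pi16. None of these genes belongs to fibroblasts alone. Endothelial cells and pericytes make SPARC, mouse T cells carry THY1, and mesenchymal tumor cells can express many matrix genes themselves. In bulk tumor RNA, fewer fibroblasts and less RNA per fibroblast cannot be told apart.

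The deposited values were scaled so that the upper quartile of the genes above 0 was 1000 in each tumor, and every value below is on that linear scale unless a log2 scale is named. The libraries held about 29409609 to 70868124 fragments as read back from the smallest steps of the values. The median was 39053966 in the Plk2-/-; p53-/- tumors and 58042777 in the p53-/- tumors. A count of 3 reads corresponded to at most 2.45 units, and no member lay at or below it in any tumor. Plk2 was between 36.6 and 553 in the Plk2-/-; p53-/- tumors (median 284) and between 186 and 8028 in the p53-/- tumors (median 3402). One library labelled p53-/-, p53-null_7435, lay inside the Plk2-/-; p53-/- range at 186, and the next lowest p53-/- tumor was at 921. The level of Trp53, the p53 gene, was between 1563 and 3914 (median 2597) in the Plk2-/-; p53-/- tumors and between 349 and 5035 (median 1818) in the p53-/- tumors, highest in p53-null_7435, so it does not check the p53-null label. Tumors PLK2null_732, PLK2null_733, PLK2null_743 and PLK2null_7763, all Plk2-/-; p53-/-, stood apart in their cell markers. Their summed level of 6 endothelial markers was 186496, 176854, 165585 and 78025, against 2041 to 16463 in the 36 tumors other than these and T11. Their summed level of 6 epithelial markers was 291, 67.1, 45.7 and 13539, below the range of 34899 to 295213 in those 36 tumors. T11 had an epithelial sum of 33742 and an endothelial sum of 6876. Tumor PLK2null_743 and T11 served as claudin-low transplants in the treatment experiments of the same work.

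Compared per kilobase of exon, the median levels of the 10 genes ran from 20.6 to 11354. SPARC, a secreted collagen-binding matricellular protein, had the highest median level, at 11354 per kb, and Postn, whose product periostin binds integrins and collagen, followed at 4828 per kb. Sparc was above Postn in 40 of 41 tumors, and Postn was above Thy1, the next gene, in 40 of 41. The middle of the order held Thy1 at 995, Dcn at 613, Mfap5 at 289, Lox at 243 and Lum at 209 per kb. Pdgfra followed at 96.9, Fap at 63.2 and Pi16 at 20.6 per kb. Neighbors in the middle of this order changed places between tumors: Thy1 exceeded Dcn in 24 of 41, Mfap5 exceeded Lox in 25, Lox exceeded Lum in 25, and Lum exceeded Pdgfra in 29. Fap was above Pi16 in 33 of 41 tumors.

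**Figure D1:**
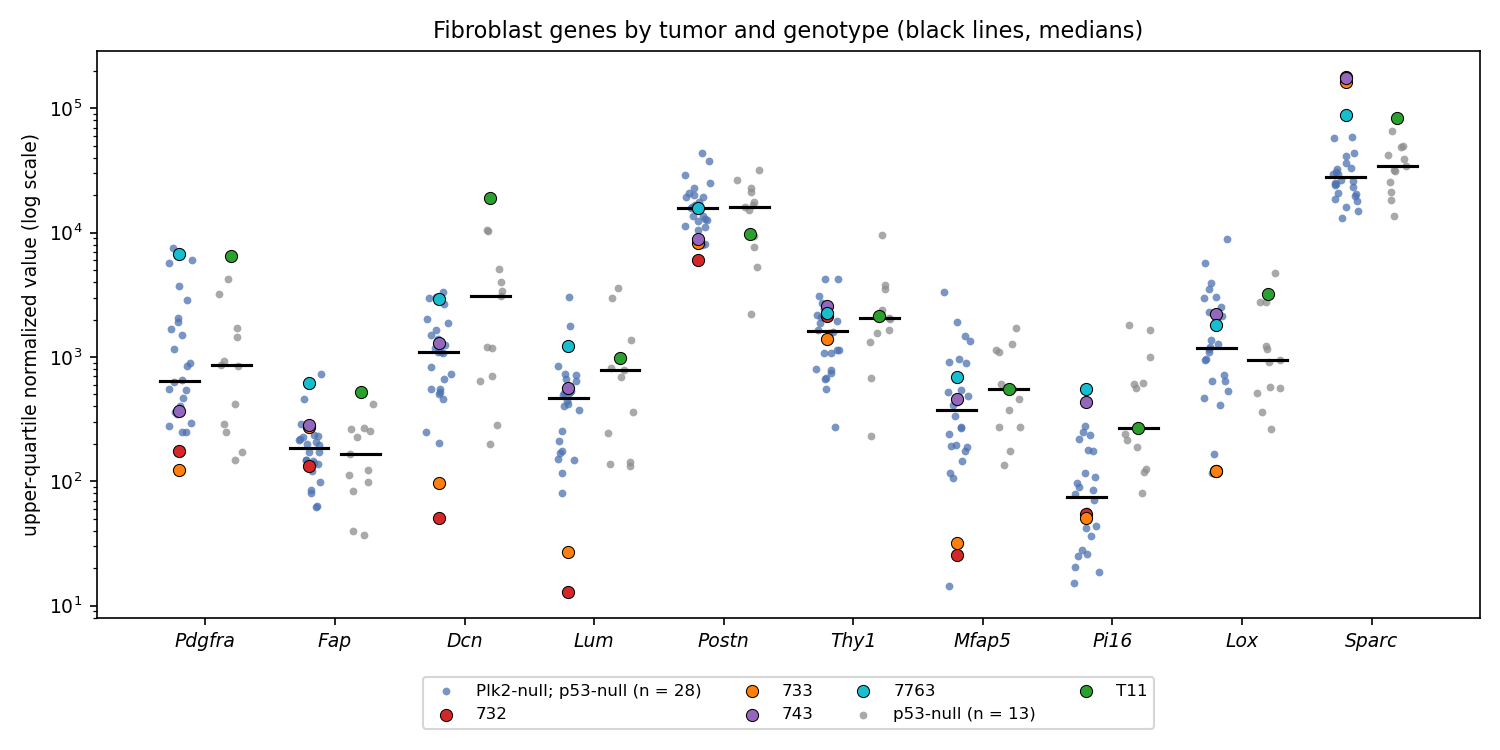
Upper-quartile normalized value of each of the 10 genes in every tumor, on a log axis, with blue points for the 28 Plk2-/-; p53-/- tumors, grey points for the 13 p53-/- tumors, black lines for group medians and outlined points for tumors PLK2null_732, PLK2null_733, PLK2null_743, PLK2null_7763 and T11. Pi16 is the gene in which all 13 p53-/- tumors lie above the median of the Plk2-/-; p53-/- tumors (74.8), and the 3 highest Sparc values belong to PLK2null_732, PLK2null_743 and PLK2null_733.

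The genotypes were compared by limma on log2(value + 1) over the 17208 genes with a mean of at least 10, and a gene was called at a Benjamini-Hochberg adjusted p below 0.05. In this fit 1 of the 10 fibroblast genes was called, and it was lower in Plk2-/-; p53-/- tumors. The background was high: 39.5% of all genes tested were called, 24.3% higher and 15.3% lower in Plk2-/-; p53-/- tumors. The members' share of 1 in 10 was below that background. Of their differences 4 were above 0 and 6 below, with a median of -0.18 on the log2 scale against 0.10 over all genes. By quantile normalization the calls over all genes split as 3425 higher and 3325 lower, in place of 4175 and 2627.

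Pi16, a secreted protein that marks adventitial fibroblasts, was the member that fell (chromosome 17, 29317680 to 29330593, plus strand, mm10). Its level ran from 15.1 in tumor PLK2null_1989 through a median of 74.8 to 550 in tumor PLK2null_7763 among the 28 Plk2-/-; p53-/- tumors. Among the 13 p53-/- tumors it ran from 80.8 in p53-null_2396R through 267 to 1813 in p53-null_5329. The ranges overlapped, but 15 of 28 Plk2-/-; p53-/- tumors lay below every p53-/- tumor, and 6 of 13 p53-/- tumors lay above every Plk2-/-; p53-/- tumor. The difference was -2.21 ± 0.46 (SE) on the log2 scale, or 4.63-fold lower on the scale of value + 1 with a 95% interval of 2.43 to 8.83 (limma, adjusted p = 0.000161). A permutation test over tumors gave an unadjusted, two-sided p of 6e-05. Both tests and the interval treat the tumors as independent, although some may share an origin, so they can overstate the evidence. Leaving out PLK2null_732, PLK2null_733 and PLK2null_743 gave -2.26 (adjusted p = 0.000154), and leaving out p53-null_7435 gave -2.16 (adjusted p = 0.000356). The Plk2-/-; p53-/- group was also cut to the 7 tumors whose numbers appear in the latency plot of primary tumors in the same work: PLK2null_7747, PLK2null_7748, PLK2null_7749, PLK2null_7750, PLK2null_7753, PLK2null_7763 and PLK2null_7764. The labels do not say that these samples are primary tumors. The difference was -1.98 and no longer passed (adjusted p = 0.0520), the upper end of a range that began at 4.52e-05 over 13 alternatives.

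Among 9 companion genes of the Pi16-expressing fibroblast, 4 fell and none rose, with a median of -0.64 on the log2 scale, beside 15.3% of all genes tested that were lower. The list was chosen with earlier results of these data known, so its count is a description and no independent support for the Pi16 difference. Clec3b, which encodes tetranectin, had a median of 9.65 in Plk2-/-; p53-/- tumors and 74.0 in p53-/- tumors, a log2 difference of -3.35 ± 0.69 (SE, limma adjusted p = 0.000144). Tnxb, encoding the matrix glycoprotein tenascin-X, had medians of 16.6 and 398 and a difference of -3.03 ± 0.91 (adjusted p = 0.00665). Clec3b and Tnxb both reached 0 among Plk2-/-; p53-/- tumors, and their lowest p53-/- values were 12.9 and 29.6. At 0 the log2 value rests on the added 1. Dpt, encoding dermatopontin, had medians of 49.4 and 204 and a difference of -2.13 ± 0.56 (adjusted p = 0.00203). The fourth was Gsn, the actin-severing protein gelsolin, at -0.91 ± 0.28 (adjusted p = 0.00907). The other 5, which were Cd34, Ly6a, Ly6c1, Sema3c and Cd248, were not called. With the same 7 tumors Clec3b and Tnxb still passed (adjusted p = 0.0202 and 0.0353), while Dpt (0.0648) and Gsn (0.164) did not.

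Some markers of other tissues were lower in the same comparison as Pi16, beside the 15.3% of all genes that were lower and the 39.5% called in either direction. Of 6 skeletal muscle markers 4 were lower, with a summed level of 21.7 to 3365 (median 43.0) in Plk2-/-; p53-/- tumors and 36.4 to 41380 (median 97.5) in p53-/- tumors, and with Acta1, Myh4 and Tnnc2 at 0 in some tumors of each genotype. Of 5 red blood cell markers 2 were lower, with sums of 491 to 351792 (median 2456) and 3139 to 45099 (median 11151), and none at 0. Of 5 adipocyte markers tested 1 was lower, Cfd, with sums over all 6 listed of 233 to 124786 (median 973) and 447 to 3744 (median 1727). Adipoq, Plin1, Lep and Cfd were at 0 in some Plk2-/-; p53-/- tumors and in no p53-/- tumor. The highest adipocyte sum, in PLK2null_743, was nearly all Fabp4 (124638), which capillary endothelium also expresses, and Adipoq was 11.9 there. The part of these tissues in the Pi16 difference was not tested. No T cell, endothelial, epithelial or Schwann cell marker was called, and 1 pericyte marker (Abcc9) and 1 macrophage marker (Cd68) were higher. The median pericyte sum was 9325 in Plk2-/-; p53-/- tumors and 9072 in p53-/- tumors, and the median macrophage sum was 12456 and 10397.

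**Figure D2:**
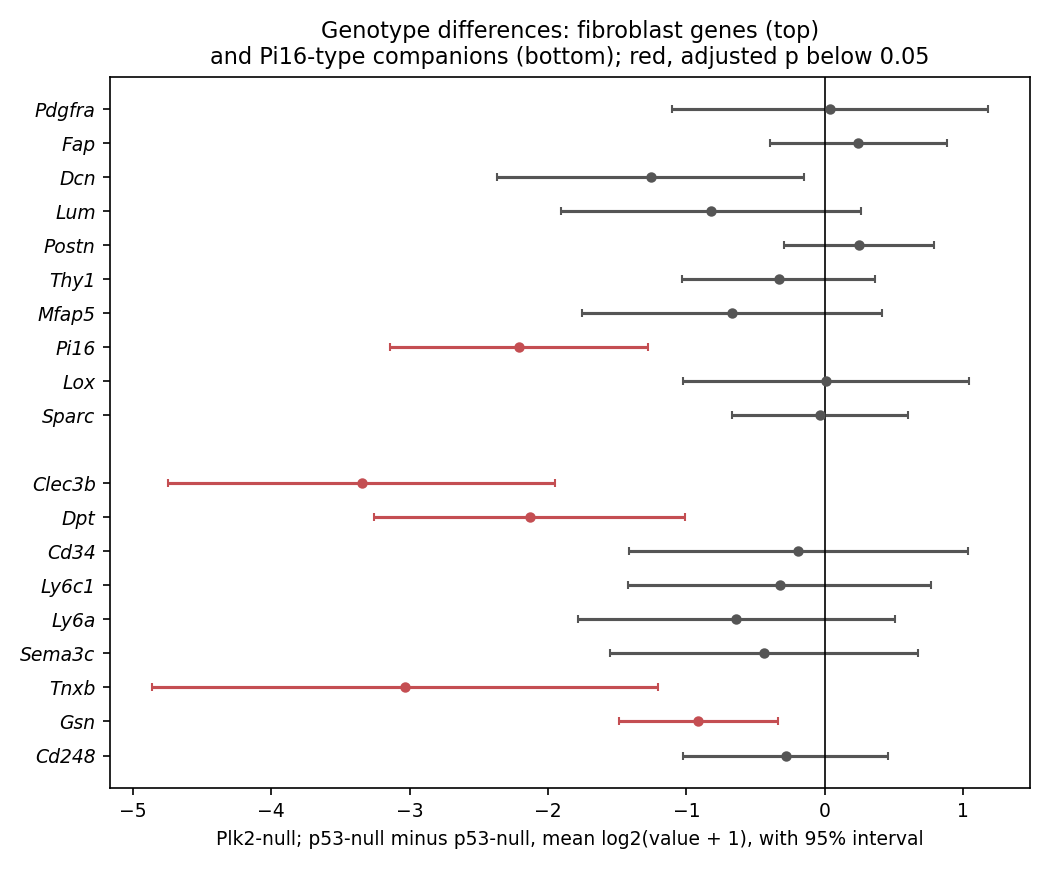
Difference in mean log2(value + 1), Plk2-/-; p53-/- minus p53-/-, with its 95% interval from limma, for the 10 fibroblast genes (top) and 9 companions of the Pi16-expressing fibroblast (bottom); red marks an adjusted p below 0.05. Pi16 at -2.21, Clec3b at -3.35, Tnxb at -3.03, Dpt at -2.13 and Gsn at -0.91 are red, and the intervals of Pdgfra, Fap, Lum, Postn, Thy1, Mfap5, Lox and Sparc include 0. The interval of Dcn, from -2.37 to -0.15, excludes 0, but it is not adjusted over genes and Dcn is not red (limma, adjusted p = 0.0651).

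Decorin and lumican are small leucine-rich proteoglycans that bind collagen fibrils and set their spacing. Their genes are neighbors on mouse chromosome 10, Dcn from 97479609 to 97518143 and Lum from 97565128 to 97572703, both on the plus strand and 46984 bases apart. Dcn ran from 50.8 in tumor PLK2null_732 through a median of 1103 to 3322 in tumor PLK2null_1984 among Plk2-/-; p53-/- tumors, and from 199 in p53-null_2208L through 3117 to 18840 in T11 among p53-/- tumors. All but 1 of the 28 Plk2-/-; p53-/- tumors lay below the p53-/- median, and 6 of 13 p53-/- tumors lay above all 28. The log2 difference was -1.26 ± 0.55 (SE), and it did not pass over all genes (limma, adjusted p = 0.0651). It did pass by quantile normalization, at -1.32 (adjusted p = 0.0495), within a range of adjusted p from 0.0495 to 0.408 over 13 alternatives. Without T11 it was -0.99 (adjusted p = 0.141), and without PLK2null_732, PLK2null_733, PLK2null_743, PLK2null_7763 and T11 it was -0.79 (adjusted p = 0.192).

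Lum had a median of 471 in Plk2-/-; p53-/- tumors (12.9 in PLK2null_732 to 3055 in PLK2null_7764) and of 780 in p53-/- tumors (133 in p53-null_2208L to 3601 in p53-null_10155). The groups overlapped over most of their range, with 24 of 28 Plk2-/-; p53-/- tumors inside the p53-/- range. The log2 difference of -0.82 ± 0.54 (SE) did not pass (limma, adjusted p = 0.228), with an interval from -1.91 to 0.26. Without PLK2null_732, PLK2null_733 and PLK2null_743 it was -0.52 (adjusted p = 0.376). Of the other small leucine-rich proteoglycans, 5 of 8 were expressed enough to test, and 1 fell. That gene was Prelp, which anchors basement membranes to connective tissue, at medians of 263 and 1836 (log2 difference -2.11 ± 0.85 SE, adjusted p = 0.0454 by limma).

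Dcn and Lum varied together across most tumors, with a Pearson r of 0.75 on log2(value + 1) over 41 tumors. All correlations here are descriptions over tumors that share a library kit and may share origin, and none was tested. Per kilobase, Dcn was 3.07 times Lum in the median tumor, and never below Lum (lowest ratio 1.10). A pair of p53-/- tumors broke the pattern. Tumor p53-null_10152 had 10223 units of Dcn and 138 of Lum, a per-kilobase ratio of 93.4, and T11 had 18840 and 983, a ratio of 24.2. The next highest ratio was 11.4, in tumor PLK2null_1987.

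**Figure D3:**
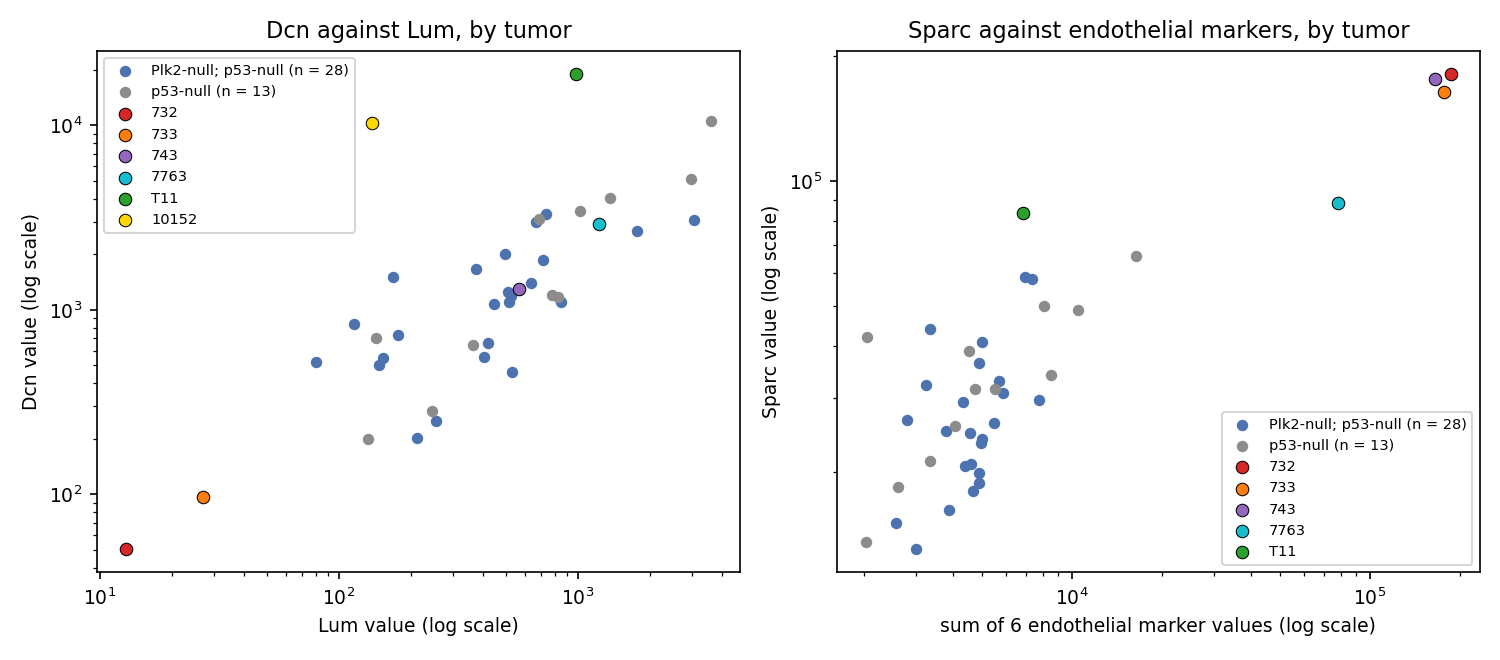
Left, Dcn against Lum in each tumor; right, Sparc against the summed level of 6 endothelial markers; all axes are log scales of upper-quartile normalized values, blue points are Plk2-/-; p53-/- tumors (n = 28), grey points p53-/- tumors (n = 13), and outlined points the tumors named in the legend. Tumors p53-null_10152 and T11 lie above the Dcn-Lum band, PLK2null_732 and PLK2null_733 lie at its lower end, and PLK2null_732, PLK2null_733, PLK2null_743 and PLK2null_7763 lie far to the right of all other tumors for the endothelial sum.

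Among the genes for cell-surface proteins, Pdgfra, Fap and Thy1, none was called between genotypes. Pdgfra, the receptor for PDGF-A and PDGF-C (chromosome 5, 75152292 to 75198215, plus strand), had medians of 641 (123 in PLK2null_733 to 7471 in PLK2null_1964) in Plk2-/-; p53-/- tumors and 868 (150 in p53-null_2208L to 6442 in T11) in p53-/- tumors. Of the 28, 25 lay inside the p53-/- range. The interval of its log2 difference ran from -1.10 to 1.18 (0.04 ± 0.57 SE, limma adjusted p = 0.966), and its sign turned with the scaling. Of 4 PDGF ligand genes and Pdgfrb, Pdgfc fell (medians 1393 and 2184, log2 difference -1.19 ± 0.35 SE, adjusted p = 0.00554 by limma), and the other 4 were not called.

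Fap encodes a surface prolyl peptidase of activated fibroblasts (chromosome 2, 62500943 to 62574075, minus strand). Its medians were 186 (62.0 in PLK2null_7747 to 726 in PLK2null_7764) in Plk2-/-; p53-/- tumors and 165 (36.8 in p53-null_10152 to 528 in T11) in p53-/- tumors. With 26 of 28 Plk2-/-; p53-/- tumors inside the p53-/- range, the log2 difference was 0.24 ± 0.32 (SE, limma adjusted p = 0.576). Of 5 other prolyl peptidase genes, Dpp4, Dpp8, Dpp9, Prep and Prcp, only Dpp8 passed, higher by 0.55 ± 0.12 on the log2 scale (adjusted p = 0.000251 by limma).

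Thy1, the GPI-anchored surface protein CD90 (chromosome 9, 44043384 to 44048579, plus strand), had medians of 1616 (276 in PLK2null_7747 to 4270 in PLK2null_1984) and 2068 (232 in p53-null_10152 to 9649 in p53-null_10155). All 28 Plk2-/-; p53-/- tumors lay inside the p53-/- range. The log2 difference was -0.33 ± 0.35 (SE, limma adjusted p = 0.472). Since T cells also carry THY1, its level was set beside 6 T cell markers, and the r over 41 tumors was 0.27. With the mean of the fibrillar collagens Col1a1, Col1a2 and Col3a1 it was 0.75. For the macrophage markers the r of Thy1 was 0.66, for the pericyte markers 0.30 and for the endothelial markers 0.28. The part of these cell types in the Thy1 level was not tested.

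Of the 10 genes Postn varied least, with an SD of 0.81 on the log2 scale over 41 tumors against 1.76 for Dcn. It ran from 6062 in PLK2null_732 through 15852 to 43799 in PLK2null_7764 among Plk2-/-; p53-/- tumors, and from 2238 in p53-null_2153L through 15955 to 31715 in p53-null_10151 among p53-/- tumors (chromosome 3, 54361109 to 54391037, plus strand). The medians nearly coincided, and the log2 difference was 0.25 ± 0.27 (SE, limma adjusted p = 0.490). An interval from -0.30 to 0.79 leaves room for a difference of either sign.

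Mfap5, a microfibril-associated glycoprotein of elastic fibers (chromosome 6, 122505845 to 122529290, plus strand), had medians of 372 (14.4 in PLK2null_7747 to 3364 in PLK2null_1984) and 553 (135 in p53-null_2396R to 1697 in p53-null_7435). In all, 5 Plk2-/-; p53-/- tumors lay below every p53-/- tumor and 2 above. The log2 difference was -0.67 ± 0.54 (SE, limma adjusted p = 0.336). Of 10 other elastic fiber genes, 3 fell and 1 rose, a share called that is close to the 39.5% of all genes. Fbln1, encoding fibulin-1, was lower by -1.78 ± 0.55 on the log2 scale (medians 699 and 2237, adjusted p = 0.00878 by limma). The other microfibril-associated genes Mfap2 (-1.50 ± 0.43, adjusted p = 0.00520) and Mfap4 (-1.47 ± 0.58, adjusted p = 0.0399) were lower too, and Fbln5, which encodes the elastin-assembly protein fibulin-5, was higher by 1.08 ± 0.36 (adjusted p = 0.0134).

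Lox encodes lysyl oxidase, the enzyme that starts the crosslinking of collagen and elastin. It ran from 116 in PLK2null_7747 through 1179 to 8934 in PLK2null_1984 among Plk2-/-; p53-/- tumors and from 263 in p53-null_10152 through 941 to 4734 in p53-null_10155 among p53-/- tumors. The log2 difference was 0.01 ± 0.51 (SE, limma adjusted p = 0.990), with an interval from -1.02 to 1.04 and a sign that turned with the scaling. Of its 4 paralogs Loxl3 was higher (medians 1935 and 1044, log2 difference 1.23 ± 0.28 SE, adjusted p = 0.000496), and Loxl1, Loxl2 and Loxl4 were not called.

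Sparc had medians of 28037 (13054 in PLK2null_1987 to 180221 in PLK2null_732) and 34099 (13554 in p53-null_2153L to 83911 in T11), on chromosome 11 from 55394500 to 55423183 on the minus strand. Its log2 difference was -0.03 ± 0.31 (SE, limma adjusted p = 0.945), and the sign turned by quantile normalization and without T11. Of 5 relatives in the SPARC family, Smoc2 fell by 2.80 ± 0.56 on the log2 scale (medians 135 and 1092, limma adjusted p = 9.67e-05). Sparcl1, the SPARC-like protein of vessels and stroma, was higher by 1.34 ± 0.42 (medians 13668 and 4888, adjusted p = 0.00943), and Smoc1, Spock1 and Spock2 were not called.

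Beyond these families, 3 lists describe fibroblast states and identity. Of 12 genes of myofibroblasts and matrix-secreting fibroblasts, Acta2, which encodes smooth muscle actin, was lower (medians 3086 and 10657, log2 difference -1.49 ± 0.55 SE, limma adjusted p = 0.0275). The other 11, Col1a1, Col1a2 and Col3a1 among them, were not called. The part of fibroblasts and of other cell types in the Acta2 difference was not tested. Of 8 genes of inflammatory fibroblasts, such as Il6, Cxcl12 and Ccl2, none was called. Of 8 mesenchymal transcription factor genes tested, Osr1 was lower (log2 difference -2.07 ± 0.55, adjusted p = 0.00246) and Prrx1 was higher (1.51 ± 0.41, adjusted p = 0.00319), with Prrx1 medians of 2711 in Plk2-/-; p53-/- tumors and 517 in p53-/- tumors. Over all 10 companion lists, 5 of 71 genes tested rose, 12 fell and 54 were not called, fewer than the 39.5% called over all genes, with the share that fell near the 15.3% of all genes.

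Between single tumors Dcn spanned 371-fold and Lum 279-fold. Tumors PLK2null_732 and PLK2null_733 were lowest for both proteoglycans, with Dcn at 50.8 and 96.5 and Lum at 12.9 and 26.96. Mfap5 was 25.8 in PLK2null_732 and 31.8 in PLK2null_733, and Lox was 121 and 122, ranks 39 and 40 of 41 for both genes. Pdgfra was 174 in PLK2null_732 and 123 in PLK2null_733, where it was the lowest of all tumors. Both lay below the 41-tumor median for 8 of 10 members, and Sparc was above it in both, at 180221 and 163285. The fibrillar collagen gene Col1a1 was also low in them, at 2883 and 1374 (ranks 37 and 40), and the libraries of this pair were among the 3 most alike of all pairs. More alike still were PLK2null_1985 with PLK2null_1986 and PLK2null_1986 with PLK2null_7750. Vim, encoding the mesenchymal filament vimentin, was high in PLK2null_732 and PLK2null_733 at 76889 and 53722 (ranks 2 and 4).

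Tumor PLK2null_743 shared the high Sparc of these tumors, at 176214, but not their low Dcn, Lum, Mfap5 and Lox. Its Col1a1 was 11407.5, rank 28 of 41. Its Dcn was 1305, its Lum 567, its Mfap5 458 and its Lox 2201, ranks 13 to 19 of 41, and its Pi16 of 431 was the second highest of the 28 Plk2-/-; p53-/- tumors. It was above the median for 8 of 10 members, with Pdgfra (368) and Postn (8836) below. Tumor PLK2null_7763 was above the median for 9 and at it for Postn. It had the highest Pi16 of its genotype (550), the second highest Pdgfra (6704) and Fap (615) of all tumors, and a Sparc of 88716, rank 4.

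T11 had the highest Dcn of the 41 tumors (18840) and ranked 3 for both Pdgfra (6442) and Fap (528). Its Sparc was 83911, rank 5, its Col1a2 was 77292, rank 2, and its Vim was 108636, rank 1. Only Postn (9809, rank 32) lay below the median. Another 4 tumors were high throughout: PLK2null_1984, p53-null_5329, p53-null_10151 and p53-null_10155 lay above the median for all 10 genes. At the other end p53-null_2208L, p53-null_2396R, PLK2null_1987, PLK2null_7748 and PLK2null_7749 lay below it for 9 of 10.

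**Figure D4:**
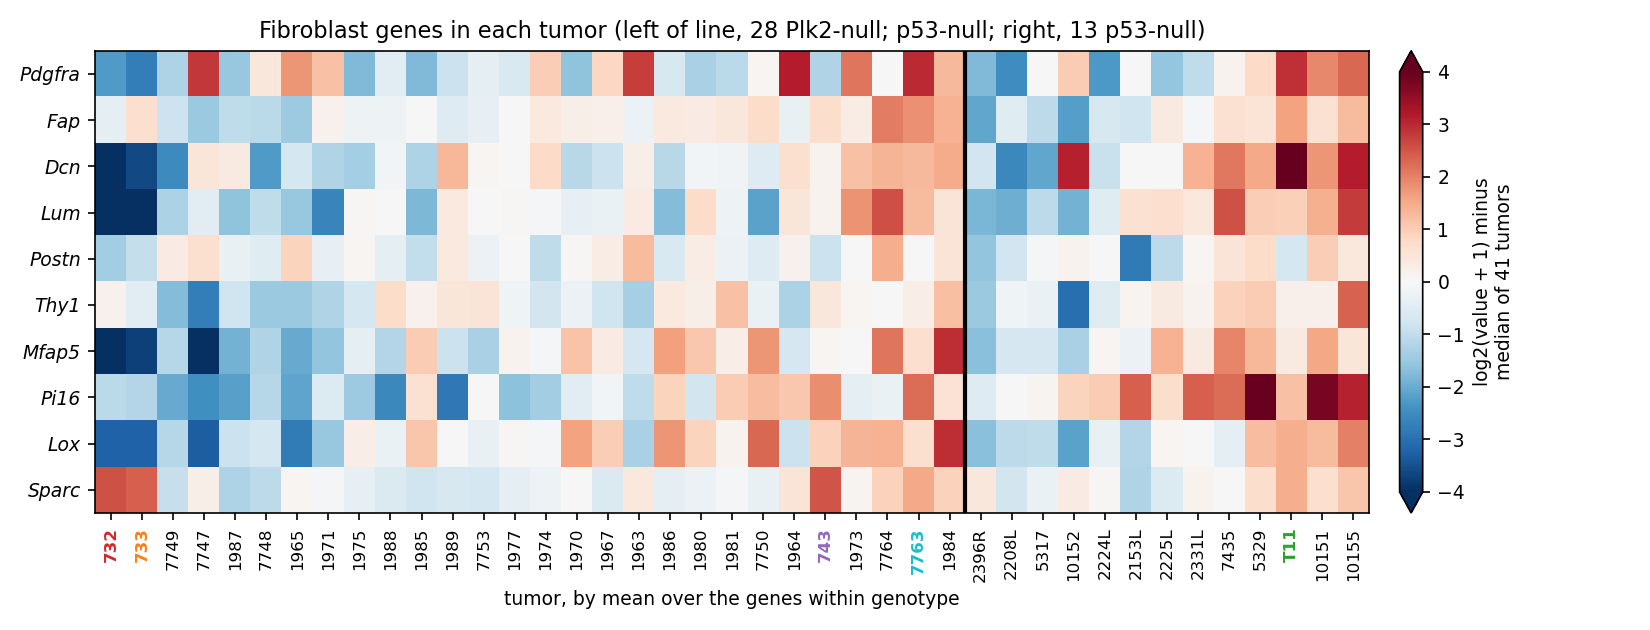
Each of the 10 genes in each of the 41 tumors as log2(value + 1) minus its 41-tumor median, red above and blue below (colors saturate at 4 in either direction), with tumors ordered within genotype by their mean over the genes and a vertical line between 28 Plk2-/-; p53-/- tumors (left) and 13 p53-/- tumors (right). Tumors PLK2null_732 and PLK2null_733 are blue for Dcn, Lum, Mfap5 and Lox and red for Sparc.

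The high Sparc of PLK2null_732, PLK2null_733, PLK2null_743 and PLK2null_7763 went with their vascular markers. They held ranks 1 to 4 of 41 for endothelial markers and, in another order, for 6 pericyte markers, and Pecam1, the endothelial adhesion molecule CD31, was 46193, 41641, 34792 and 22792. T11, rank 5 for Sparc, ranked 12 for endothelial and 23 for pericyte markers. Fabp4, which fat cells and capillary endothelium both express, was 103406, 99093, 124638 and 51564 in the same 4 tumors, against 225 to 3121 in the 36 tumors outside the 5 named, while the fat cell hormone gene Adipoq was 3.58, 7.19, 11.9 and 84.4. Over 41 tumors the r of Sparc with the endothelial list was 0.86, and 0.69 without PLK2null_732, PLK2null_733 and PLK2null_743. With the pericyte list it was 0.78 (0.50 without those 3), with the red blood cell list 0.67 (0.37) and with the epithelial list -0.80 (-0.53). Its r with the fibrillar collagens was 0.05, and 0.34 without those 3. With the companion genes of the Pi16-expressing fibroblast the r of Sparc was 0.60 (0.62 without those 3), and with the T cell list 0.54 (0.27). The part of these cell types in the Sparc level was not tested.

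The 10 genes did not vary as one set. Of their 45 pairs, 11 had an r of at least 0.5 over 41 tumors and 6 had a negative r. The negative r were small, from -0.12 to -0.02, and by Spearman correlation 13 pairs reached 0.5 and 2 were negative. The tightest pair was Mfap5 and Lox, at 0.88, and Fap and Thy1 belonged near it, with Fap-Lox at 0.69, Fap-Thy1 at 0.68, Thy1-Lox at 0.62 and Fap-Mfap5 at 0.62. The same 4 genes followed the fibrillar collagens, with r of 0.87 for Mfap5, 0.87 for Lox, 0.75 for Thy1 and 0.72 for Fap. They also followed the 6 macrophage markers, with r from 0.56 (Mfap5) to 0.71 (Fap). Pdgfra stood closer to Dcn (0.61) and was at 0.03 with the collagens, and Postn was at 0.21.

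**Figure D5:**
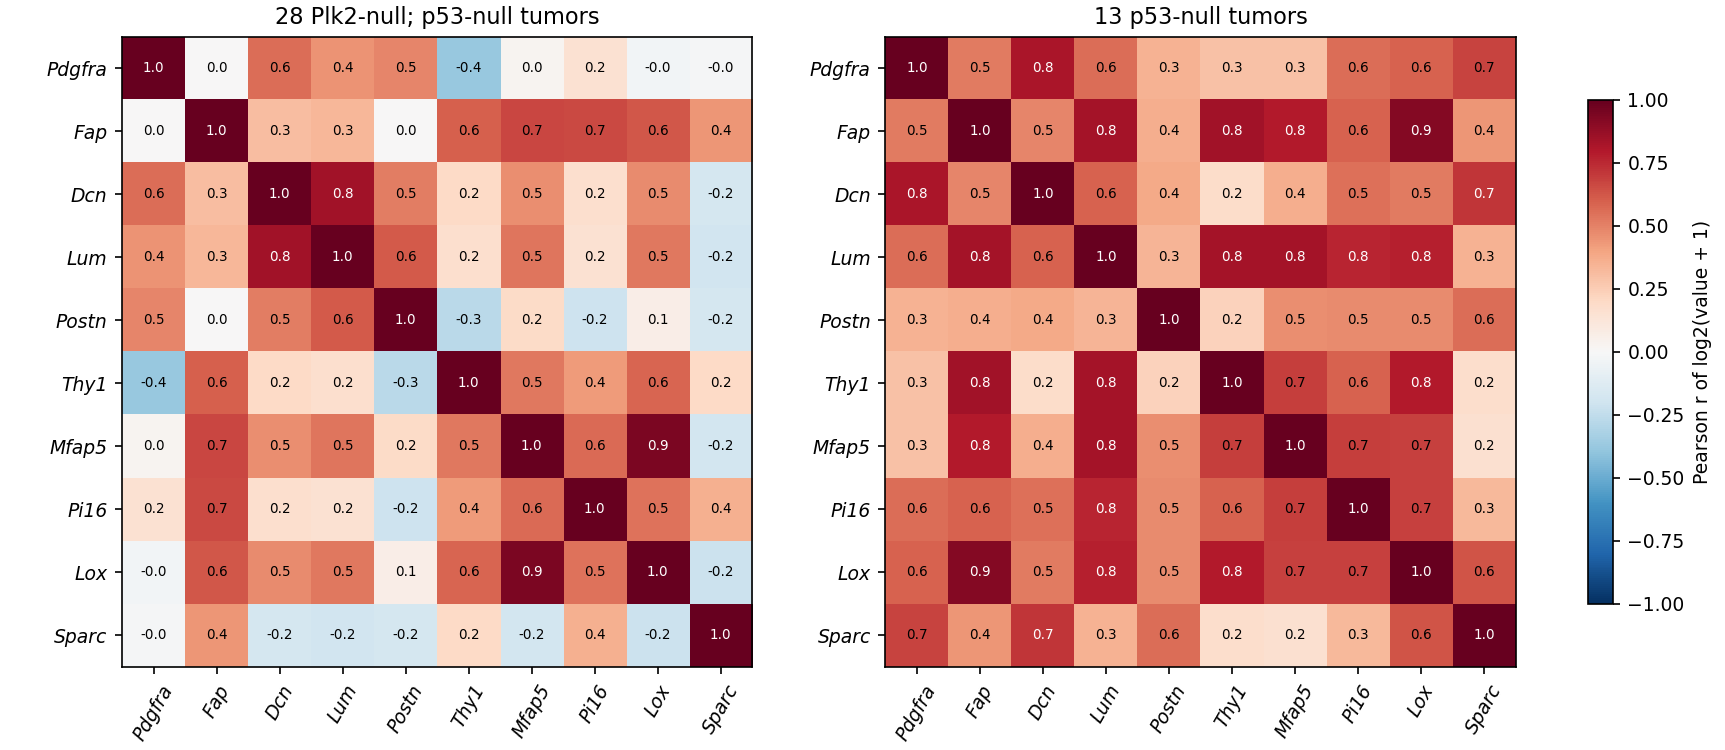
Pearson r of log2(value + 1) between the 10 genes, left over the 28 Plk2-/-; p53-/- tumors and right over the 13 p53-/- tumors, with red for positive and blue for negative r. Of 45 pairs, 15 reach 0.5 on the left and 27 on the right, and 10 are negative on the left and none on the right.

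The likeness between members differed with the tumors used. Among the 28 Plk2-/-; p53-/- tumors 15 pairs reached 0.5 and 10 were negative, and among the 13 p53-/- tumors 27 reached 0.5 and none was negative. Pdgfra and Thy1 had an r of -0.38 in the first group and 0.29 in the second, and Dcn and Sparc had -0.17 and 0.72. Over all tumors but PLK2null_732, PLK2null_733 and PLK2null_743, Dcn and Sparc were at 0.66, against 0.10 with them. Whether the correlations differ between genotypes was not tested.

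Outside the members, each gene had its own nearest patterns among 14682 other genes over 41 tumors. Lox was most like P4ha3, a subunit of the collagen prolyl hydroxylase (0.89), followed by Loxl1 and Col12a1. Mfap5 was most like Loxl1 (0.88), then Vgll3 and Cilp. Fap was most like Col3a1 (0.83), and Thy1 most like Cd248, the stromal surface protein endosialin (0.85), before Col5a3 and Pla1a. Dcn was most like Serpinf1, which encodes the secreted factor PEDF (0.74), and Lum most like Srpx (0.75).

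Pi16 was most like Dpt (0.81), one of its companions in the adventitial list, and then Nnmt (0.77) and Ptger3 (0.75). Pi16 and Dpt both differed between genotypes, which enters an r over all 41 tumors. Within the 28 Plk2-/-; p53-/- tumors the r of Pi16 was 0.69 with Dpt, 0.57 with Nnmt and 0.75 with Ptger3. Over 41 tumors the r of Pi16 with the mean of the adventitial list was 0.73, with 6 adipocyte markers 0.53 and with the fibrillar collagens 0.52. Pdgfra was most like Map6 (0.83), then Mrc2, the collagen-uptake receptor, and Pi15. Postn was most like Ntn4 (0.73). The patterns nearest to Sparc were B3gnt9 (0.90), Chst7 (0.90) and Ramp2 (0.89), the last an adrenomedullin receptor component of endothelium, and without the 5 named tumors these were 0.85, 0.75 and 0.78.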

How the data were processed

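Tumor mRNA was sequenced as paired 50-base reads. Per the labels and the study's methods, the authors aligned reads with STAR 2.7.6a (mm10), quantified them with Salmon 1.4.0, used Picard 2.22.4 and SAMtools, and upper-quartile normalized each tumor; the annotation is not given in the sources used here. The deposited values are a linear signal per gene symbol (41 columns, all used), with 51.5% at 0. Steps between low values give the depth, but only 77.9 to 80.5% of values lay within 0.1 read of a whole number, so no count test was run. Group membership came from the strain label. No pair of libraries agreed within counting noise (lowest mean chi-square per gene 41.0).

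Values were tested by limma 3.58.1 (R 4.3.3) on log2(value + 1), with a mean of at least 10 over tumors, all 41 tumors, no covariate and Benjamini-Hochberg adjustment. A p-value measures spread between tumors that may share an origin. Single members were also tested by 100000 permutations. Levels per kilobase used exonic lengths and coordinates of GENCODE M21. The text names all members, up to 3 called genes with the largest log2 difference per companion list, the 3 genes of highest r with each member, and the 5 tumors of the rule; Gsn, Fbln5, Abcc9, Cd68, Cfd, Plk2, Pecam1, Fabp4, Adipoq, Col1a1, Col1a2, Vim and tumors such as p53-null_10152 and p53-null_7435 were named after their values were seen. Members and lists were chosen with earlier results of these data known. Alternatives varied the pseudocount, filter, scaling, trend, tumors and correlation measure. On simulated data the fit called 180 of 195 changed genes and 9 unchanged genes among 16764.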

Additional observations from a re-analysis of the deposited data

How the results depend on the processing

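Quantile normalization shifted the median of all genes by 0.10 on the log2 scale, and relative to that median the Pi16 difference was -2.31 as deposited and -2.39 after it. Over 13 limma alternatives Pi16 stayed between -2.42 and -1.98 and passed in all but one, the fit of the 7 Plk2-/-; p53-/- tumors numbered in the latency plot, a status the labels do not give (-1.98, adjusted p = 0.0520). Dcn passed by quantile normalization (-1.32, adjusted p = 0.0495). Its permutation test (-1.26, p = 0.0316) was not adjusted and so is no call. The unadjusted limma p of the main fit was 0.0275, and 8163 of 17208 genes had an unadjusted limma p below 0.05. Differences near 0 changed sign. Pdgfra was -0.0069 by quantile normalization, -0.034 by TMM rescaling and -0.071 without tumor PLK2null_7763. Lox was -0.093, -0.062 and -0.019 under the same 3, -0.033 with those 7 tumors and -0.0099 without p53-null_7435. Sparc was 0.32 by quantile normalization and 0.072 without T11. With those 7 tumors 2942 genes were called, in place of 6802, and 4 companion genes in place of 17, in a fit of 7 against 13 tumors. Pairs of members at an r of at least 0.5 numbered 27 over the 13 p53-/- tumors and 11 over 41; the cause was not tested. The fits without PLK2null_7763, T11 or p53-null_7435, and the correlations over 13 tumors and without PLK2null_732, PLK2null_733 and PLK2null_743, were chosen after seeing the data. No paired analysis was possible because the labels give no replicate number shared between the genotypes. All members exceeded 3 reads in every tumor. Median depth was lower in Plk2-/-; p53-/- tumors than in p53-/- tumors, and its part in the genotype differences was not tested.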
